A study of Homo sapiens with 46 samples.

Results

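The nuclear genome encodes the proteins that copy, transcribe, mature, stabilise and translate the mitochondrial genome. This report describes 55 such genes, found by their symbols among the 58735 genes of the deposited count table and grouped here into 6 steps of mitochondrial gene expression. Every symbol was found, and all 55 genes passed the filter on low counts, with a lowest count of 187 reads in any library. The group was named for transcription, RNA processing and translation, and it also holds 4 replication factors.

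HEK293T cells, a human kidney-derived line of genotype WT, were treated for 48 hours with chimeras at 2 µM. Each chimera joins pCox4, a peptide that directs cargo into mitochondria, to a morpholino, an uncharged antisense oligomer directed against an mRNA made from mtDNA, so that its translation is blocked. Targets were ND1, ND2, ND3, ND4L and ND5 of complex I, CYTB of complex III, COX1, COX2 and COX3 of complex IV, and ATP6 and ATP8 of complex V. Control cells received pCox4 in the buffer of the click reaction without a morpholino, and all cells, control included, received the delivery reagent EndoPorter. Poly(A) RNA was sequenced in 46 libraries of 12 conditions, with 4 libraries per condition except for COX2 and ND2, which have 3. The study describes them as biological replicates of a single cell line. By the study's methods the libraries were made in 2 batches, on other days and with other reagents, with replicates 1 and 2 in batch 1 and the later numbers 3 and 4 in batch 2. Comparing each treatment with the control asks whether the nuclear genes for the mitochondrial expression machinery respond when translation of an individual mitochondrial mRNA is blocked.

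Total counts were 18876395 to 100698084 per library, and COX3 replicate 4 was the library with 100698084. In this line 8 of 8 kidney line markers, such as PAX2 and KRT18, had a median over 1 CPM (read counts scaled to library size), and 8 of 8 markers of other cell types were under 1 CPM. The summed level of those 8 other markers was 0.974 to 1.99 CPM in the control libraries and 0.711 to 2.29 CPM over all libraries, and HBB was at 0 in 45 libraries. In these bulk samples fewer expressing cells and less RNA per cell cannot be told apart. The targeted transcripts themselves differed in direction: MT-CO1 was at 33.7% to 46.2% of its batch control after COX1 treatment, while MT-ND1 was at 161% to 185% after ND1 treatment.

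Mitochondrial DNA is transcribed from a few promoters into long polycistronic RNAs by the polymerase POLRMT with TFAM and TFB2M. These RNAs are cut mainly at the tRNAs, by RNase P at the 5′ end and by ELAC2 at the 3′ end, and the mRNAs are then polyadenylated and held by the LRPPRC-SLIRP complex. The mRNAs are translated by a dedicated ribosome. Its rRNAs are modified by methyltransferases and pseudouridine synthases, and GTPases and helicases help in its folding and assembly. All of these proteins are imported from the cytosol.

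The 4 replication factors were POLG and POLG2, the catalytic and accessory subunits of the DNA polymerase, TWNK, the helicase, and SSBP1, which binds single-stranded DNA. The 7 transcription factors were TFAM, POLRMT, TFB2M, the elongation factor TEFM and MTERF1, MTERF2 and MTERF3 of the mTERF family. The 13 processing factors comprised the RNase P subunits TRMT10C, HSD17B10 and KIAA0391 (the nuclease, also called PRORP), ELAC2, the FASTK family (FASTK, FASTKD1, FASTKD2, FASTKD3, FASTKD5 and TBRG4), the RNA-granule protein GRSF1 and the pentatricopeptide proteins PTCD1 and PTCD2. The 6 stability factors were LRPPRC and SLIRP, the degradosome partners PNPT1 and SUPV3L1, the oligoribonuclease REXO2 and the poly(A) polymerase MTPAP. The 11 translation factors were the initiation factors MTIF2 and MTIF3, the elongation factors TUFM, TSFM and GFM1, the recycling factors GFM2 and MRRF, the release factors MTRF1 and MTRF1L, the COX1 translation activator TACO1 and the ribosome-associated PTCD3. The 14 ribosome assembly factors were the rRNA methyltransferases TFB1M, NSUN4, MRM1, MRM2 and MRM3, the NSUN4 partner MTERF4, the GTPases MTG1, MTG2 and ERAL1, the helicases DDX28 and DHX30, the pseudouridine synthases RPUSD4 and TRUB2, and MALSU1, which binds the large subunit.

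Promoter windows of 250 bases before to 50 bases after a transcript start, from RefSeq on GRCh38.p14, were matched for 52 of the 55 genes and searched on both strands for the cores of 3 regulators of mitochondrial biogenesis genes. The GABPA core CCGGAAGT stood in a window of 14 members, or 26.9%, against 4.95% of the 27305 genes with a window. The YY1 core AAGATGGC stood in 8 members, or 15.4% against 3.52%, and the NRF1 core GCGCATGC in 5 members, or 9.62% against 3.68%. The NRF1 members were POLRMT, TFB1M, TFB2M, MRM1 and MTPAP. These are letter matches in a window and were given no test, since the genes were picked for a shared function. A match at any listed start of a gene was counted. The 27305 genes were not matched to the members for expression, gene type or number of starts, so the 2 shares come from unlike sets. The window of POLRMT is shown because it holds both the NRF1 and the GABPA core, and those of SSBP1 and HSD17B10 because these genes are described library by library in the treatment comparisons. Capitals mark the matches on either strand, and the last run of capitals in POLRMT holds the NRF1 core and its reverse complement in overlap. SSBP1 and HSD17B10 have 3 and 2 listed starts, of which a single window is printed for each. They lie on chr19:633488-633787 (minus strand), chr7:141738071-141738370 (plus strand) and chrX:53434327-53434626 (minus strand).
POLRMT: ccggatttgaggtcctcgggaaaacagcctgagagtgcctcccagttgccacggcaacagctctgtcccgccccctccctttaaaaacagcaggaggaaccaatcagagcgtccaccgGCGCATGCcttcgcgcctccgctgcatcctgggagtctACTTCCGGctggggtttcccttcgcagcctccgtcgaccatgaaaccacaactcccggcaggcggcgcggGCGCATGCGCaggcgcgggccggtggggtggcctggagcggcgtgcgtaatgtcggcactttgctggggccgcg
SSBP1: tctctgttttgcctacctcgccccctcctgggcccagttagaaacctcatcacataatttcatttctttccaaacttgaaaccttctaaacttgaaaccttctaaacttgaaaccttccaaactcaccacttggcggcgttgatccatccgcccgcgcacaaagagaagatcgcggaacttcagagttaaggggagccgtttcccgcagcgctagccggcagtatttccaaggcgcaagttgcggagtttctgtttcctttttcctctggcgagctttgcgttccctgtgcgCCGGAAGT
HSD17B10: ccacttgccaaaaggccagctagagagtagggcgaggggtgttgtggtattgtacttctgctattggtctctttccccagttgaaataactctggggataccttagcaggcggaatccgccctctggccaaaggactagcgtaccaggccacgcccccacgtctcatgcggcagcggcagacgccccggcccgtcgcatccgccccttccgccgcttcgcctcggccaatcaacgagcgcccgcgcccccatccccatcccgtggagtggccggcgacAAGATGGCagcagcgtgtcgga

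Levels are given as CPM after TMM normalization, divided by the length of all annotated exons of the gene in kilobases. This length was 1.115 kilobases for HSD17B10 and 12.115 for PTCD2. It can exceed the length of the mRNA that is made, by an amount that may differ between genes. The order of the genes and steps is therefore approximate. In the control they ran from 1.70 CPM per kilobase for PTCD1 to 130.5 for HSD17B10, a 76.9-fold range with a median of 11.8. HSD17B10 and TUFM (109 CPM per kilobase), the mitochondrial EF-Tu, stood above ERAL1 (48.7), TFAM (37.2) and ELAC2 (36.0). The control libraries of HSD17B10 and TUFM overlapped in level, those of TUFM and ERAL1 did not, and 45 of the 54 neighbouring pairs in the order overlapped. By step, the median level was highest for replication at 23.3 CPM per kilobase, then stability at 18.5, processing at 17.9, translation at 13.4, ribosome assembly at 8.74 and transcription at 7.59.

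Within steps the spread was wide. Replication ran from POLG2 at 7.0 CPM per kilobase to SSBP1 at 28.9, and stability from MTPAP at 8.13 to LRPPRC at 31.6. Transcription ran from MTERF1 at 4.28 to TFAM at 37.2, with POLRMT at 31.6 and TFB2M at 7.59. Translation ran from MTRF1, a release factor, at 3.11 to TUFM at 109, with GFM1 at 8.87, TSFM at 12.7 and PTCD3 at 13.4. Ribosome assembly ran from MTERF4 at 4.07 to ERAL1 at 48.7.

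**Figure D1:**
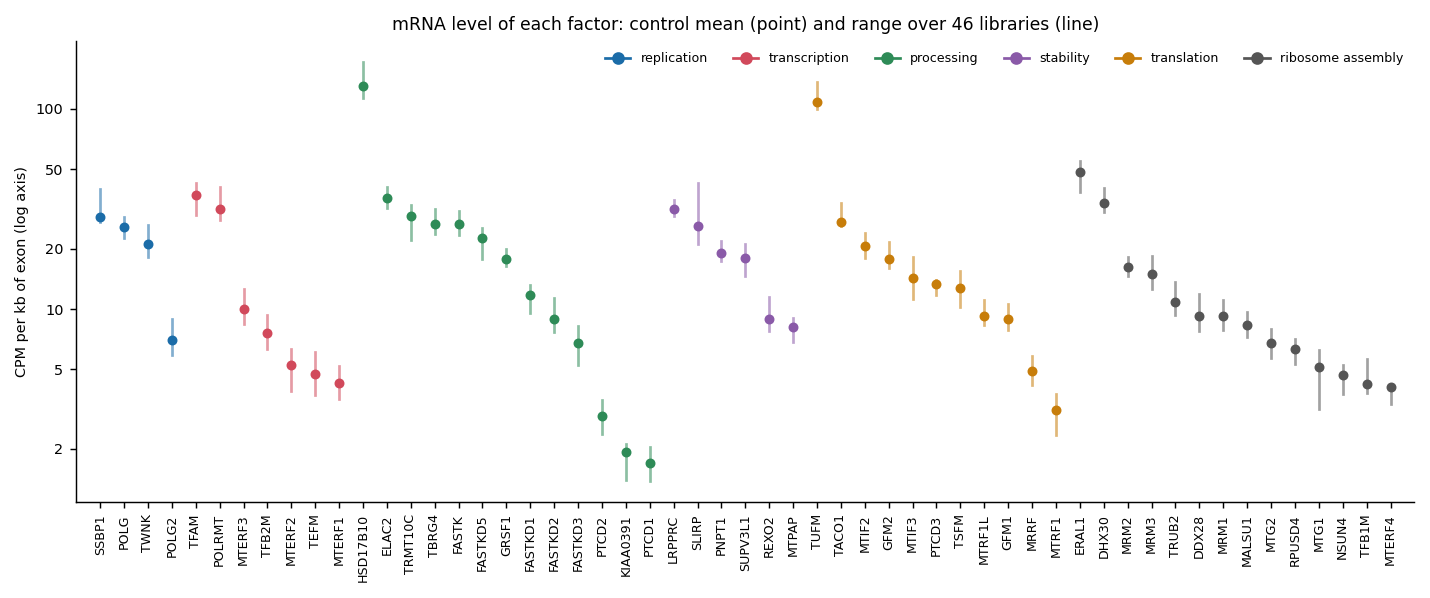
Level of each of the 55 factors in CPM per kilobase of exon on a log axis, grouped by step. Points are the mean of the 4 control libraries and lines the range over all 46 libraries. HSD17B10 (130.5) and TUFM (109) stand at the top, PTCD1 (1.70) and KIAA0391 (1.92) at the bottom, and no line spans 2-fold.

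On this scale, some proteins that work together were at unequal mRNA levels. The ratios carry the limit of the annotated exon lengths. These were 1.115 kilobases for HSD17B10 and 6.982 for KIAA0391, and 2.631 for SLIRP and 9.76 for LRPPRC. In RNase P, TRMT10C stood at 0.227 ± 0.0288 of the HSD17B10 level per kilobase (SD, n = 4 control libraries) and KIAA0391 at 0.0150 ± 0.00238. TSFM, the exchange factor of TUFM, stood at 0.117 ± 0.00359 of TUFM. By contrast SLIRP was at 0.825 ± 0.126 of LRPPRC, SUPV3L1 at 0.939 ± 0.0550 of PNPT1, and TFAM at 1.18 ± 0.100 of POLRMT. The treatment means of the SLIRP to LRPPRC ratio ran from 0.830 in ND2 to 0.973 in ATP8, and 9 of 11 lay within the range of the control libraries, 0.651 to 0.951. For SUPV3L1 to PNPT1, 10 of 11 treatment means lay within the control range. The count was 6 of 11 for TRMT10C to HSD17B10 and for TFAM to POLRMT, and 4 of 11 for KIAA0391 to HSD17B10 and for TSFM to TUFM. These ranges rest on 4 control libraries and were given no test. The counts also depend on the width of the control range, which was only 0.112 to 0.120 for TSFM to TUFM. They therefore do not rank the pairs by how far their ratios moved. KIAA0391 shares 45.95% of its exonic bases with other annotated genes and PTCD1 57.2%, so the levels of both are uncertain, as the use of strand and of shared reads in counting is not given in the sources used here. Over 10% of the exonic bases were shared in 16 of the 55 genes, MTERF4 (51.0%), MTG1 (45.5%), MTERF2 (11.6%), TSFM (28.5%) and SLIRP (14.9%) among them.

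These mRNAs varied little between libraries. The highest library of a gene was less than 2-fold above its lowest for each of the 55 genes, with SLIRP (2.00 after rounding) and MTG1 (1.96) at the upper end and PTCD3 (1.19) and LRPPRC (1.203) at the lower end. The biological coefficient of variation estimated by edgeR had a median of 5.88% over the members, from 3.995% for GRSF1 to 10.9% for SLIRP, beside 8.66% over all 20272 genes tested. Those genes were not matched to the members for count level. The share of all genes under 2-fold was not computed, so low variation is not shown to be particular to the members.

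No factor passed the test in any treatment. Of 605 tests, 55 factors in 11 treatments, edgeR's quasi-likelihood F test called 0 at an adjusted p under 0.05, and the lowest adjusted p was 0.0881. At an unadjusted p under 0.05 there were 64 tests, 47 with a higher and 17 with a lower level than the control, spread over 25 of the 55 genes. This is 10.6% of the tests. Over all genes tested, the share in a single treatment ran from 3.31% in ND3 to 14.1% in ND4L. The counts by step in the paragraphs below are to be read beside these shares. DESeq2, which gave no adjusted p in 4 of the 605 tests, called 2, SSBP1 in ND1 and FASTKD5 in ND5, where it called 1.27% and 0.877% of all genes with an adjusted p, and it gave an unadjusted p under 0.05 in 65 tests. Without the filter on low counts edgeR called 3 members in at least 1 treatment (SSBP1, SLIRP and HSD17B10). In the treatments concerned it called 0.528% to 0.678% of all genes. Fits of only the libraries compared also called 3 (SSBP1, TUFM and HSD17B10), with 1.58% to 2.71% of all genes called there. Over all genes the main edgeR fit called few in the 11 treatments too. The share called was 0.00987% in ATP6, 0.0641% in ATP8, 0.0543% in COX1, 0.469% in COX2, 0.306% in COX3, 0.548% in CYTB, 0.0888% in ND1, 0.0247% in ND2, 0.00987% in ND3, 0.148% in ND4L and 0.158% in ND5. A count of 0 of 55 is therefore near what these shares give for any 55 genes.

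The estimates bound the size of any difference more closely than the count does. Log2 fold changes ran from -0.27 (MTG1 in CYTB) to 0.28 (SSBP1 in ND1), with a median absolute value of 0.057 and a median standard error of 0.065. The 95% intervals of all 605 estimates lay within 0.5 of 0 on the log2 scale, from a lowest bound of -0.46 to a highest of 0.50. These intervals are not adjusted for the number of tests. Only 6 estimates exceeded 0.25 in size, and they belonged to SSBP1, SLIRP, TFB1M, MTG1 and KIAA0391.

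**Figure D2:**
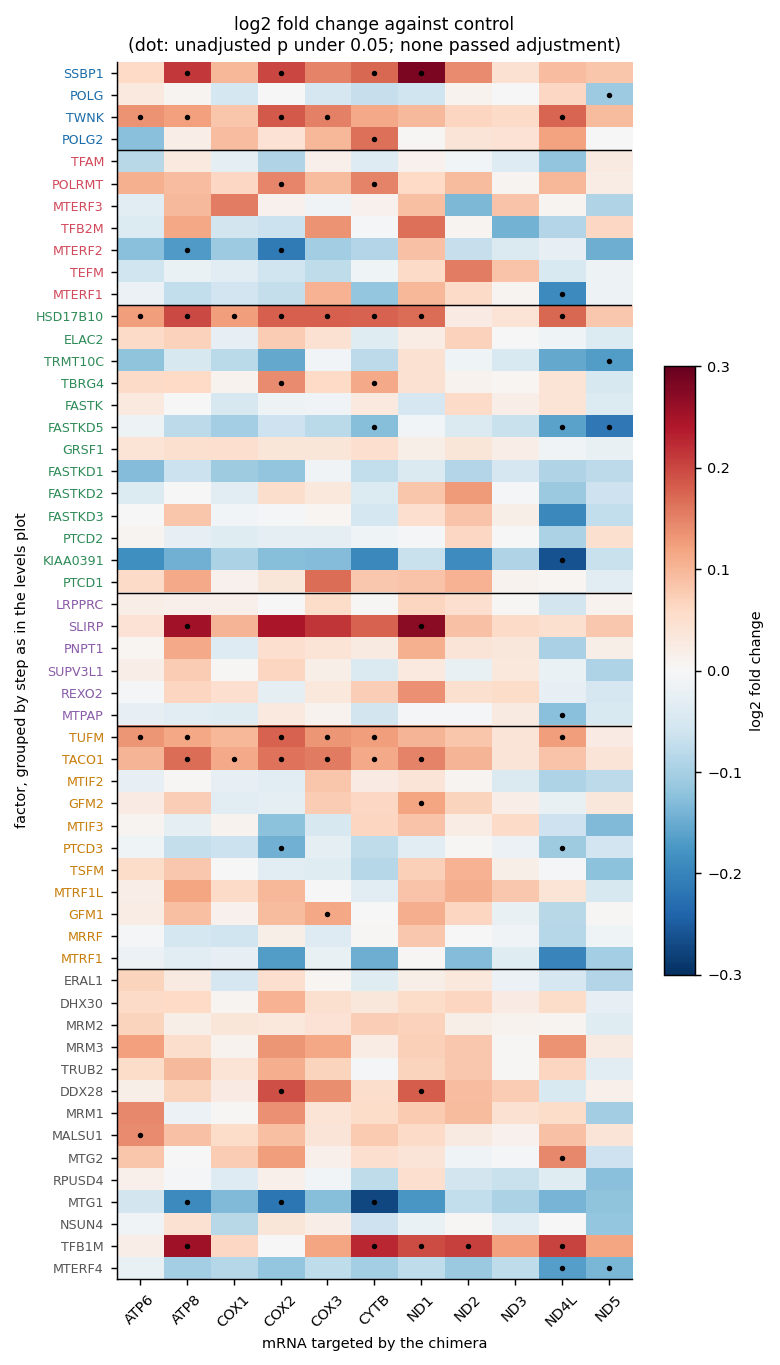
Log2 fold change of each factor (vertical axis, grouped by step in the order of the levels plot) in each treatment against control (horizontal axis), on a colour scale from -0.3 to 0.3. Dots mark the 64 tests with an unadjusted p under 0.05, of which 0 passed adjustment. The upper end is SSBP1 in ND1 (0.28) and the lower end MTG1 in CYTB (-0.27).

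Among the replication factors, SSBP1 gave the upper end of the whole set. Its control libraries were at 149, 149.9, 142 and 135 CPM, and the ND1 libraries at 161, 195, 188 and 157 CPM, replicates 1 to 4 in order. Every ND1 library was above every control library. The log2 fold change was 0.28 (95% interval 0.13 to 0.43), 21.6% above control, with an adjusted p of 0.0927 in edgeR. Within batches the log2 fold change was 0.25 in batch 1 and 0.32 in batch 2. TWNK, the replicative helicase, had log2 fold changes from 0.06 in ND3 to 0.18 in COX2, and the lowest p was in ND4L with 0.17 (adjusted p = 0.158 in edgeR). POLG ranged from -0.11 in ND5 to 0.06 in ND4L. POLG2 ranged from -0.13 in ATP6 to 0.17 in CYTB, where its libraries were at 24.8, 23.4, 28.6 and 30.1 CPM beside 22.4, 23.8, 24.9 and 23.7 CPM in the control, so that the groups overlapped.

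The transcription factors differed little from control. TFAM, which packages mtDNA and activates transcription, was at 211, 221, 202 and 200.2 CPM in the control, and its log2 fold changes ran from -0.12 in ND4L to 0.03 in ATP8, with none at an unadjusted p under 0.05. POLRMT was at 173, 153, 169 and 153 CPM in the control and ran from 0.01 in ND3 to 0.15 in CYTB, where the adjusted p was 0.283 in edgeR. TFB2M, the promoter-melting partner of POLRMT, was at 14.2, 13.8, 15.1 and 13.0 CPM in the control and at 12.4, 12.3, 13.2 and 12.9 CPM in ND3. The groups overlapped in part, through ND3 replicate 3 and control replicate 4, and the log2 fold change was -0.14 (95% interval -0.33 to 0.04). It had the lowest p of the 55 factors in ND3, an unadjusted edgeR p of 0.129. Over the 77 tests of this step, 2 were higher and 3 lower at an unadjusted p under 0.05. The lower ones were MTERF2 in ATP8 and COX2 and MTERF1 in ND4L, and the higher ones POLRMT in COX2 and CYTB.

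The processing factors gave both the lowest adjusted p and the gene with the most small p-values. HSD17B10 is a dehydrogenase that doubles as a subunit of RNase P. It was at 159, 162, 134 and 127 CPM in the control, with batch 1 above batch 2. It was at 173, 177, 159.7 and 156 CPM in ATP8, at 168, 166.5, 156 and 164 CPM in COX3, at 192, 180.5, 145 and 141 CPM in CYTB and at 165, 173, 166 and 149 CPM in ND4L. Within its own batch each of these 16 libraries lay above the control mean. These treatments are shown because HSD17B10 had the lowest p of the members there, as it also had in COX1. All libraries of ATP6, COX2 and ND1 lay above the control mean too. The count was 3 of 4 in COX1, ND3 and ND5 and 2 of 3 in ND2. The log2 fold changes were 0.20 in ATP8 (95% interval 0.09 to 0.31), 0.18 in COX3, 0.18 in CYTB and 0.17 in ND4L, with adjusted p-values in edgeR of 0.146, 0.165, 0.113 and 0.145. It had an unadjusted p under 0.05 in 8 of 11 treatments, all of which are read against the same 4 control libraries. Its estimates in batch 2 alone were larger than in batch 1 alone in ATP8 (0.27 beside 0.12), COX3 (0.29 beside 0.06), COX1 (0.19 beside 0.06) and ND4L (0.27 beside 0.07), and smaller in CYTB (0.13 beside 0.22).

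FASTKD5, a mitochondrial RNA-binding protein required for processing junctions without a tRNA, had the lowest adjusted p. Its libraries were at 65.9, 66.9, 63.8 and 62.9 CPM in the control and at 57.2, 57.9, 57.6 and 50.9 CPM in ND5. The groups did not overlap, and ND5 replicate 4 stood below its 3 companions. The log2 fold change was -0.22 (95% interval -0.33 to -0.10), 13.9% under control, with an adjusted p of 0.0881 in edgeR and 0.0234 in DESeq2. It was -0.21 in batch 1 alone and -0.22 in batch 2 alone, and -0.19 without ND5 replicate 4 (adjusted p = 0.271).

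The other RNase P subunits did not share the values of HSD17B10. KIAA0391, the nuclease, had log2 fold changes from -0.26 in ND4L to -0.07 in ND5. In ND4L its libraries were at 11.4, 10.1, 9.71 and 13.5 CPM beside 13.1, 12.8, 14.5 and 13.4 CPM in the control, so that replicate 4 overlapped (adjusted p = 0.222 in edgeR). TRMT10C, the tRNA methyltransferase subunit, ran from -0.17 in ND5 to 0.05 in ND1. ELAC2 ran from -0.04 in ND5 to 0.08 in COX2, with no unadjusted p under 0.05. The KIAA0391 to HSD17B10 ratio had treatment means of 0.0110 in ND4L to 0.0136 in ND3, beside 0.0126 to 0.0172 in the single control libraries. TBRG4, a FASTK family member, had an unadjusted p under 0.05 in COX2 (0.14) and CYTB. The 8 processing genes without an unadjusted p under 0.05 in any treatment were ELAC2, FASTK, FASTKD1, FASTKD2, FASTKD3, GRSF1, PTCD1 and PTCD2.

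**Figure D3:**
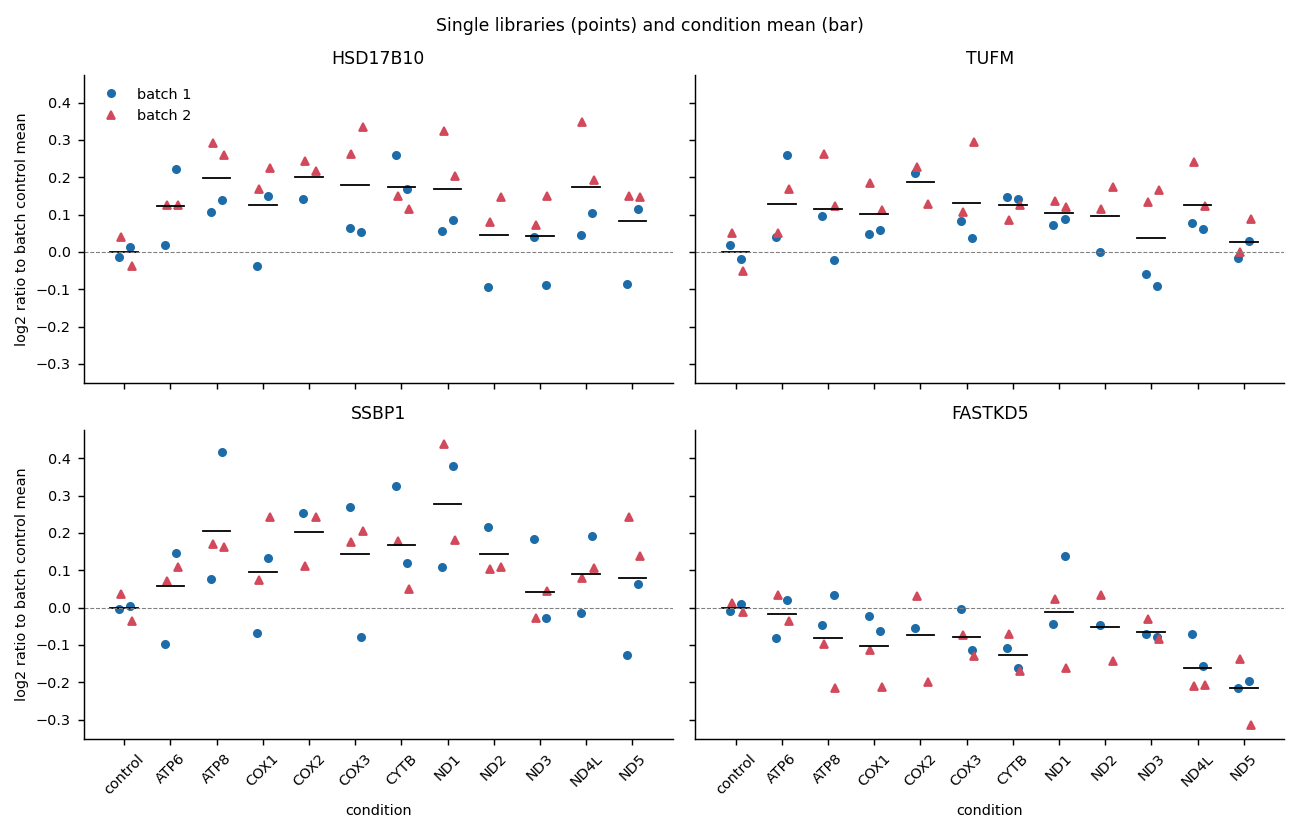
Log2 ratio of each library to the mean of the control libraries of its batch (vertical axis) by condition (horizontal axis) for HSD17B10, TUFM, SSBP1 and FASTKD5. Circles are batch 1, triangles batch 2 and bars the condition mean. FASTKD5 in ND5 lies under the control in all 4 libraries (estimate -0.22) and SSBP1 in ND1 above it in all 4 (0.28).

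Among the stability factors, LRPPRC, which protects mitochondrial mRNAs from decay, was at 301, 314, 300.3 and 318 CPM in the control. Its log2 fold changes ran from -0.05 in ND4L to 0.06 in ND1, and its widest interval bounds were -0.15 and 0.16. Its partner SLIRP was at 77.2, 72.0, 68.8 and 55.9 CPM in the control and at 75.9, 102, 90.5 and 62.3 CPM in ND1. The groups overlapped, and the log2 fold change of 0.27 carried an interval of 0.04 to 0.50 (adjusted p = 0.320 in edgeR). PNPT1 and SUPV3L1, the nuclease and helicase of the degradosome, ran from -0.10 to 0.11 and from -0.09 to 0.08 with no unadjusted p under 0.05.

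Among the translation factors, TUFM, which delivers aminoacyl-tRNA to the ribosome, had the lowest p in ATP6 and COX2. It was at 261, 255, 243 and 227 CPM in the control. COX2 replicates 2, 3 and 4 were at 298, 275 and 257 CPM, and ATP6 replicates 1 to 4 at 265, 309, 243 and 264 CPM, so that both overlapped the control across batches. The log2 fold change was 0.18 in COX2 (95% interval 0.06 to 0.29; adjusted p = 0.123 in edgeR) and 0.13 in ATP6 (adjusted p = 0.444). TACO1 ran from 0.04 in ND3 to 0.17 in ATP8. PTCD3, a component of the small ribosomal subunit, was at 123 ± 3.15 CPM in COX2 (SD, n = 3) and 136 ± 2.57 CPM in the control (n = 4), a log2 fold change of -0.14 (adjusted p = 0.161 in edgeR). GFM1, the translocase, ran from -0.08 in ND4L to 0.12 in COX3, and TSFM from -0.12 in ND5 to 0.11 in ND2. Over the 121 tests of this step, 14 were higher and 2 lower at an unadjusted p under 0.05.

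The ribosome assembly factors gave 9 higher and 5 lower tests of 154 at an unadjusted p under 0.05. TFB1M, which dimethylates the small-subunit rRNA, was at 14.6, 12.2 and 13.2 CPM in ND2 replicates 1, 3 and 4 beside 11.4, 11.2, 11.1 and 12.4 CPM in the control, overlapping through replicate 3 of ND2. Its log2 fold change there was 0.20 (95% interval 0.01 to 0.40), with an adjusted p of 0.998 in edgeR. Its largest estimate was in ATP8, at 13.7 ± 0.877 CPM (SD, n = 4) beside 11.5 ± 0.584 CPM (SD, n = 4) in the control. There the log2 fold change was 0.25 (95% interval 0.07 to 0.44), with an adjusted p of 0.26 in edgeR. The libraries of ATP8 and of ND4L did not overlap those of the control. MTG1, a GTPase of large-subunit maturation, was at 18.8, 17.9, 25.2 and 22.3 CPM in the control and at 15.9, 13.0, 22.0 and 19.3 CPM in CYTB. Each CYTB library was under both control libraries of its batch, while the groups overlapped across batches (log2 fold change -0.27, adjusted p = 0.132 in edgeR). MTERF4 ran from -0.16 in ND4L to -0.02 in ATP6.

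Read across the set, the members' median log2 fold change lay between -0.041 in ND5 and 0.059 in ND1, beside -0.003 to 0.004 for all genes tested in the 11 treatments. The share of members with an unadjusted p under 0.05 was above that of all genes in ATP8 (16.4% and 10.2%), COX2 (20% and 13.6%), CYTB (18.2% and 13.7%), ND4L (20% and 14.1%) and ND1 (12.7% and 11.7%). It was below it in the other 6, including ND3 (0% and 3.31%). These are descriptions of the list, which received no test.

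**Figure D4:**
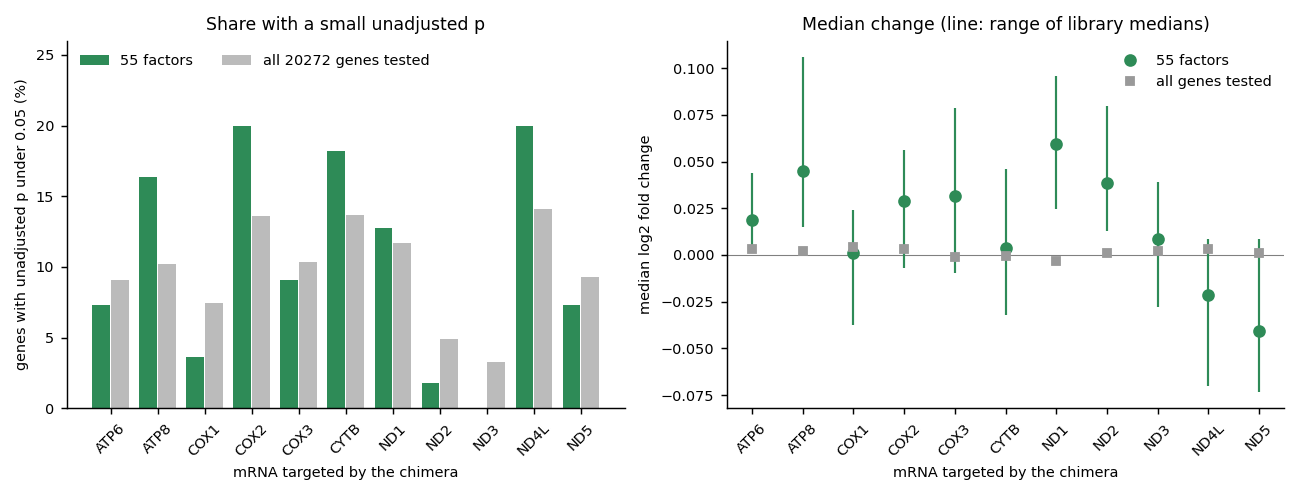
Left, percentage of genes with an unadjusted p under 0.05 in each treatment for the 55 factors and for all 20272 genes tested. Right, median log2 fold change of the factors (points, with the range of the medians of single libraries) and of all genes (squares), from -0.041 in ND5 to 0.059 in ND1 for the factors.

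Averaging the 11 treatments against the control gave 42 treated libraries beside 4. In this comparison 0 of 55 factors passed, in edgeR and in DESeq2, with 0.261% of all genes called by edgeR and a lowest adjusted p of 0.136. At an unadjusted p under 0.05 there were 9 members, 16.4% beside 11.9% of all genes. The 6 higher were HSD17B10 (log2 0.13, 95% interval 0.05 to 0.22), SSBP1 (0.14), TFB1M (0.14), TWNK (0.12), TACO1 (0.11) and TUFM (0.11). The 3 lower were MTG1 (-0.15), MTERF4 (-0.10) and FASTKD5 (-0.09). For HSD17B10 38 of 42 treated libraries lay above the control mean of their batch. The count was 39 for TWNK, 38 for TACO1, 36 for TUFM, 35 for SSBP1 and 34 for TFB1M. It was 4 for MTG1, 4 for MTERF4 and 7 for FASTKD5. The treated libraries of a batch share the same control libraries, so these counts are not independent observations. Estimates for the role genes not yet given were POLRMT 0.09, SLIRP 0.14, KIAA0391 -0.14, TRMT10C -0.07, PTCD3 -0.06, GFM1 0.04, TFAM -0.03, PNPT1 0.03, LRPPRC 0.02, ELAC2 0.02, TFB2M 0.01, SUPV3L1 0.01 and TSFM 0.01, and each interval included 0.

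Setting each treatment against the mean of the other 10, which uses no control library, again called 0 of 605, and the lowest adjusted p was 0.0913 (FASTKD5 in ND5, log2 -0.14). There were 56 tests at an unadjusted p under 0.05, 25 higher and 31 lower, or 9.26% of the tests. Over all genes that share ran from 3.88% in COX1 to 12.6% in ND5. DESeq2 called 1 member, FASTKD5 in ND5, where it called 2.34% of all genes. The share of all genes called by edgeR was 0.774% in ND5 and between 0.00987% and 0.0592% in the other 10 treatments: 0.00987% in ATP6, COX2 and ND3, 0.0148% in ATP8, 0.0197% in ND4L, 0.0296% in ND2, 0.0543% in COX1, COX3 and ND1 and 0.0592% in CYTB. In ND5, 12 members were lower and 0 higher at an unadjusted p under 0.05, 21.8% of members beside 12.6% of all genes, among them TSFM (-0.14), TUFM (-0.09), POLG (-0.10) and SUPV3L1 (-0.11). In ND1, 10 were higher and 0 lower, 18.2% beside 10.8%, among them MTERF2 (0.20), TFB2M (0.17) and SSBP1 (0.16). In ND4L, 9 were lower and 2 higher, 20% beside 11.1%, with PNPT1 at -0.14. POLG2 had the lowest p in ATP6 (-0.19, adjusted p = 0.476 in edgeR), where it was at 20.6, 20.02, 23.7 and 22.9 CPM, and also in CYTB (0.13). The lowest p elsewhere belonged to PNPT1 in ATP8 (0.09), MTERF3 in COX1 (0.15), TBRG4 in COX2 (0.11), MTIF2 in COX3 (0.11), FASTKD2 in ND2 (0.14) and HSD17B10 in ND3 (-0.10). A joint test of any difference among the 12 conditions, added after the data were seen, called 0 of 55 in edgeR, with 0.493% of all genes called and 10 members at an unadjusted p under 0.05, 18.2% beside 12.2% of all genes, HSD17B10 lowest at 0.00487. It was not run in DESeq2.

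Between the batches, unlike between the conditions, members passed the test, but the precision was not alike. The median standard error was 0.027 for the batches. It was 0.065 for the treatments against control and 0.048 for their mean. A test of batch 2 against batch 1 in the same edgeR fit, also added after the data were seen, called 33 of 55 members, 8 higher and 25 lower, while 57.1% of all genes were called. MTG1 was 0.42 higher on the log2 scale in batch 2 (95% interval 0.34 to 0.49), PTCD2 0.24 and POLG2 0.23. TEFM had -0.25, TRUB2 -0.24 and HSD17B10 -0.18. The share of members called was near that of all genes.

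**Figure D5:**
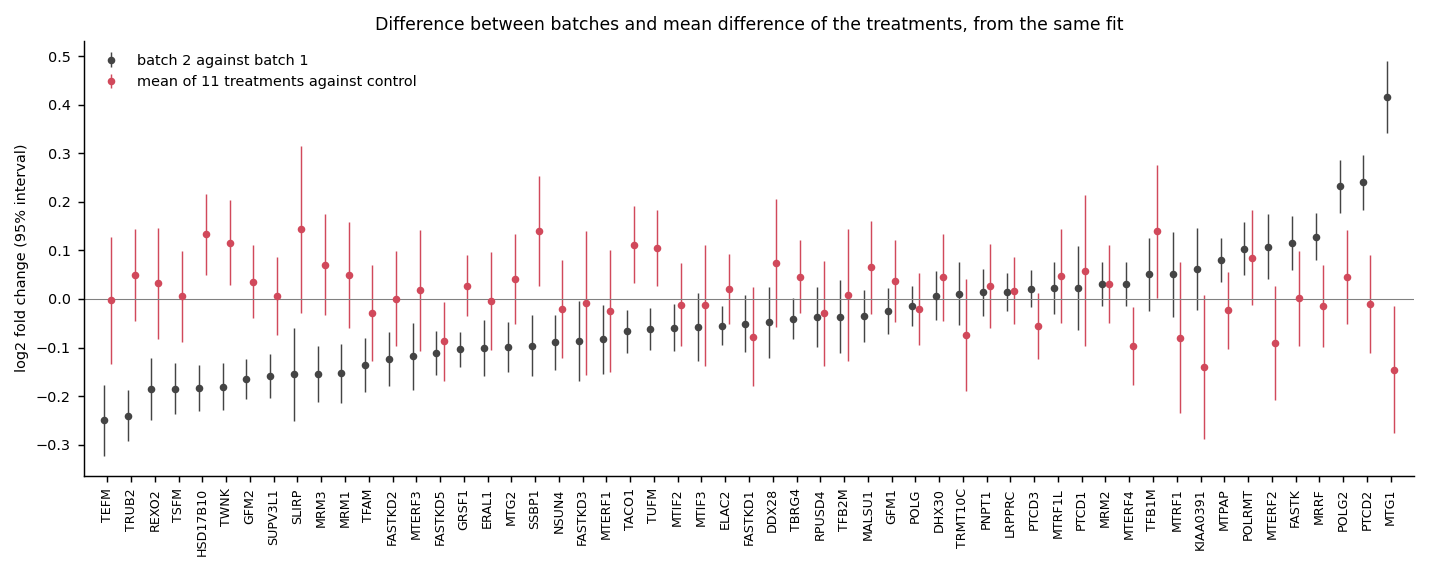
Log2 fold change with its 95% interval for each factor between batches (dark points) and for the mean of the 11 treatments against control (red points), ordered by the batch difference. MTG1 at 0.42 and TEFM at -0.25 mark the ends for the batch, while the treatment means stay between -0.15 and 0.14.

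Other genes of the same machinery and its regulators were read in the same fit. Of 33 further genes of mtDNA expression and maintenance, 0 passed in any treatment or in the mean in edgeR. Up to 6 had an unadjusted p under 0.05 in a treatment (ND4L, 2 higher and 4 lower), where 14.1% of all genes did. Among 9 nuclear regulators of mitochondrial biogenesis, ESRRA, an orphan nuclear receptor, was higher in CYTB (0.33, adjusted p = 0.0396 in edgeR). Of 78 mitochondrial ribosomal protein genes, edgeR called MRPL24 higher in ATP8 (0.30), CYTB (0.28) and the mean of treatments (0.22, adjusted p = 0.0327). It called MRPS16 higher in CYTB (0.17, adjusted p = 0.0418). Over all genes, edgeR called 0.0641% in ATP8, 0.548% in CYTB and 0.261% in the mean of treatments. The median log2 fold change of the 78 genes was 0.131 in ND1 and -0.002 in ND5, beside 0.059 and -0.041 for the 55 factors. MRPL58 belongs both to the 33 and to the 78.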

How the data were processed

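Poly(A) RNA-seq counts of reads per gene were deposited by the authors for 46 libraries, raw and before their batch correction. The submitters' processing notes name GRCh38.p12, R 4.3.0, DESeq2 1.40.2 and limma 3.56.2, and the aligner, the counter and the use of strand are not given in the sources used here. The deposited gene length, in bases, matched the union of exons in GENCODE release 29.

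Counts were tested with edgeR 4.0.16 in R 4.3.3 (TMM, filterByExpr with a minimum count of 10, terms for condition and batch, quasi-likelihood F test, Benjamini-Hochberg adjustment over 20272 genes, threshold 0.05). Intervals at 95% came from the F statistic, and library ratios from log2 CPM with a prior count of 2. DESeq2 1.42.0, other normalizations and filters, each batch alone, the replicate number as a block and 46 leave-one-out fits were alternatives. Total counts set the precision, and intervals cover the spread between libraries. The 66 replicate pairs differed by more than sampling noise (chi-square over its degrees of freedom 3.31 to 24.5). The script was tested on simulated data. Members and lists were chosen with earlier results of these data known. Members named in full were those with the lowest p in a treatment, 16 genes of fixed roles and the highest and lowest level per step.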

Additional observations from a re-analysis of the deposited data

Results flagged for a closer look

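Members given library by library were examined in 31 groups of 4 libraries for a library far from its companions by Dixon's ratio, above its 95% critical value, which chance exceeds in about 1 in 20 groups. FASTKD5 in ND5 replicate 4 stood at 50.9 CPM beside 57.2 to 57.9 CPM in the other ND5 libraries, a ratio of 0.897. PTCD3 in control replicate 3 stood at 139.8 CPM beside 134 to 135 CPM in the other control libraries, a ratio of 0.896. With the filter on low counts and terms for condition and batch, edgeR called no member in a treatment against the other 10, and the settings that did call one are given with the dependence on processing.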

How the results depend on the processing

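No member was called in any of the 220 counts from leaving out a library, nor without a batch term, with RLE size factors, with library sizes from nuclear genes, with the gene length trend removed, with a minimum count of 50 or in either batch alone. Other settings called members against control as follows. Without a filter on low counts there were 3 members in ATP8 (HSD17B10, SSBP1 and SLIRP), 1 in COX2 and 1 in COX3 (SLIRP) and 2 in ND1 (SSBP1 and SLIRP), 3 members in all, where 0.528%, 0.678%, 0.536% and 0.612% of all genes were called. With only the libraries compared there were 3 in COX2 (TUFM, HSD17B10 and SSBP1), 1 in CYTB (HSD17B10) and 1 in ND1 (SSBP1), 3 in all, with 1.89%, 2.71% and 1.58% of all genes called. DESeq2 called 1 in ND1 (SSBP1, adjusted p = 0.0394) and 1 in ND5 (FASTKD5, adjusted p = 0.0234), 2 in all. The cause was not tested. Against the other 10 treatments, DESeq2 called 1 (FASTKD5 in ND5, with 2.34% of all genes called) and the fit without a filter 1 (SSBP1 in ND1, with 0.363%).

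With the replicate number as a block in place of the batch, 1 member was called in ND5 against control (FASTKD5, adjusted p = 0.0289, with 0.261% of all genes called), 1 in all, and 1 against the other treatments (FASTKD5 in ND5, adjusted p = 0.0311, with 1.31%). Over all genes the block moved the calls in ND5 from 32 to 53 and from 157 to 266. The labels give no pairing, and deviations of same-numbered libraries correlated from -0.48 to 0.58, with a median of 0.053 beside -0.128 for the other number of the batch. The block called no other member.

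Over their alternatives, the adjusted p of FASTKD5 in ND5 against control ran from 0.0234 to 0.811 and that of SSBP1 in ND1 from 0.00013 to 0.934. For the mean of treatments, 4 estimates near 0 changed sign. TFB2M was -0.019 with the length trend removed and -0.0185 in batch 2 alone, with -0.0225 to 0.052 over the leave-one-out fits. ELAC2 was -0.0133 in batch 1 alone, with -0.0117 to 0.0413 over those fits. SUPV3L1 was -0.0231 in batch 2 alone, with -0.0306 to 0.0407. TSFM was -0.00016 without a batch term, -0.0092 with the length trend removed and -0.0122 in batch 2 alone, with -0.00452 to 0.0129. With 4 or 3 libraries per treatment the median standard error was 0.065.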
